A study of Mus musculus with 2 samples.

Results

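The muscle microRNAs, or myomiRs, were examined as 10 annotated miRNA genes out of the 2202 genes in the count tables: Mir206, Mir133b, Mir1a-1, Mir1a-2, Mir1b, Mir133a-1, Mir133a-2, Mir208b, Mir499 and Mir486. They were taken by symbol and not by their measured levels, though with earlier results of these data known, and all 10 were found. The libraries came from C2C12, a myoblast line established from injured thigh muscle of C3H mice, and held RNA shorter than 30 nucleotides. They were labelled as 2 biological replicates of a single group. No treatment, time or culture stage was given for either replicate, so growing and differentiating cells cannot be told apart by label and no contrast between conditions exists. Whether the replicates came from separate cultures was not described, so differences between them measure the spread of these libraries, part of which may be technical.

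MyomiRs are cut from hairpin transcripts that skeletal and cardiac muscle make under the control of muscle transcription factors such as MyoD, myogenin, Mef2 and Srf. The miR-1a, miR-133a, miR-133b and miR-206 genes are the classical set: miR-1a and miR-206 are known to favour differentiation, and miR-133a to favour myoblast growth. miR-208b and miR-499 come from introns of myosin heavy chain genes and are linked to slow fibre identity, while miR-486 comes from an intron of Ank1 and is known in both muscle and red blood cells. miR-206 is specific to skeletal muscle, and is the member most associated with myoblasts, regeneration and differentiating myotubes.

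A single mature arm of each member with countable reads and an available sequence is shown first, and the opposite arm is left out. The seed decides which targets a miRNA can pair with, and the rest of the sequence decides whether a read has a single place in the genome. Capitals mark the seed, bases 2 to 8. The sequences are those of the RefSeq entries used here, on GRCm38.p6, which covered 5 of the 10 genes. Mir1a-2, Mir1b and Mir486, which also had reads, were not among them. The cardiac paralogue miR-208a is added for comparison.
miR-206-3p: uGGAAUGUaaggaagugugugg
miR-133b-3p: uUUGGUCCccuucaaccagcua
miR-208b-3p: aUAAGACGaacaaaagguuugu
miR-499-5p: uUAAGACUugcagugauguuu
miR-208a-3p: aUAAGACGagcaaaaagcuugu

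The members fell into families by seed. The miR-206-3p seed GGAAUGU also occurred in the Mir1a-1 and Mir1a-2 hairpins, and in 13 of the 2202 hairpins in all. The miR-133b-3p seed UUGGUCC occurred in Mir133a-1, Mir133a-2 and the annotated Mir133c, and in 9 hairpins in all. miR-208b-3p and miR-208a-3p shared the seed UAAGACG and differed at 3 of 22 positions, counted from the 5′ end of miR-208b-3p: A10G, G16A and U18C. miR-499-5p shared only the first 6 seed bases with miR-208b-3p and changed at the last (G8U). These are counts of matching letters in hairpins, not of mature miRNAs with that seed.

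The hairpins lay at 6 places on mm10. Mir206 (chromosome 1, 20679010 to 20679082, plus strand) and Mir133b (chromosome 1, 20682769 to 20682887, plus strand) stood 3686 bases apart. Both overlapped exons of the lincRNA Gm28653 on their strand, Mir206 in part and Mir133b entirely. RefSeq names a lncRNA with the same start Lincmd1, the muscle transcript known as linc-MD1. The 2 hairpins are shown whole, with the mature arms in capitals, because this locus gave nearly all reads of the set.
Mir206: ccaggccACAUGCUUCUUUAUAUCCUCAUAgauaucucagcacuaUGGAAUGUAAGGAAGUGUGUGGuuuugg
Mir133b: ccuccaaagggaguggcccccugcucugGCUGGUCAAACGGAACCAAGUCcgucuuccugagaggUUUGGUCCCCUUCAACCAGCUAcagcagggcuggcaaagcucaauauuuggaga

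The miR-1 and miR-133a genes are duplicated. Mir1a-1 (chromosome 2, 180389048 to 180389124, plus strand) and Mir133a-2 (chromosome 2, 180398379 to 180398482, plus strand) were 9254 bases apart and overlapped no other annotated gene. Mir133a-1 (chromosome 18, 10782909 to 10782976) and Mir1a-2 (chromosome 18, 10785481 to 10785552) lay on the minus strand in an intron of the lncRNA Mir133a-1hg. They were antisense to intron 13 of 21 of Mib1, a ubiquitin ligase of the Notch pathway. Mir1b (chromosome 18, 10785446 to 10785567) lay on the plus strand in that Mib1 intron and covered all 72 bases of Mir1a-2 from the other side.

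The remaining members were intronic. Mir208b (chromosome 14, 54975700 to 54975776, minus strand) lay in intron 31 of 40 of Myh7, which encodes the slow and beta-cardiac myosin heavy chain. Mir499 (chromosome 2, 155622880 to 155622958, plus strand) lay in intron 19 of 41 of Myh7b. Mir486 (chromosome 8, 23142555 to 23142682, plus strand) lay in intron 44 of 45 of Ank1, the ankyrin of the red cell and muscle membrane skeleton. On the minus strand, 90 bases of Mir486 overlapped the annotated gene Mir3107, for which RefSeq gives the synonym mir-486b. Intron numbers are those of the GENCODE transcript with the most exons that holds the hairpin in an intron.

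**Figure D1:**
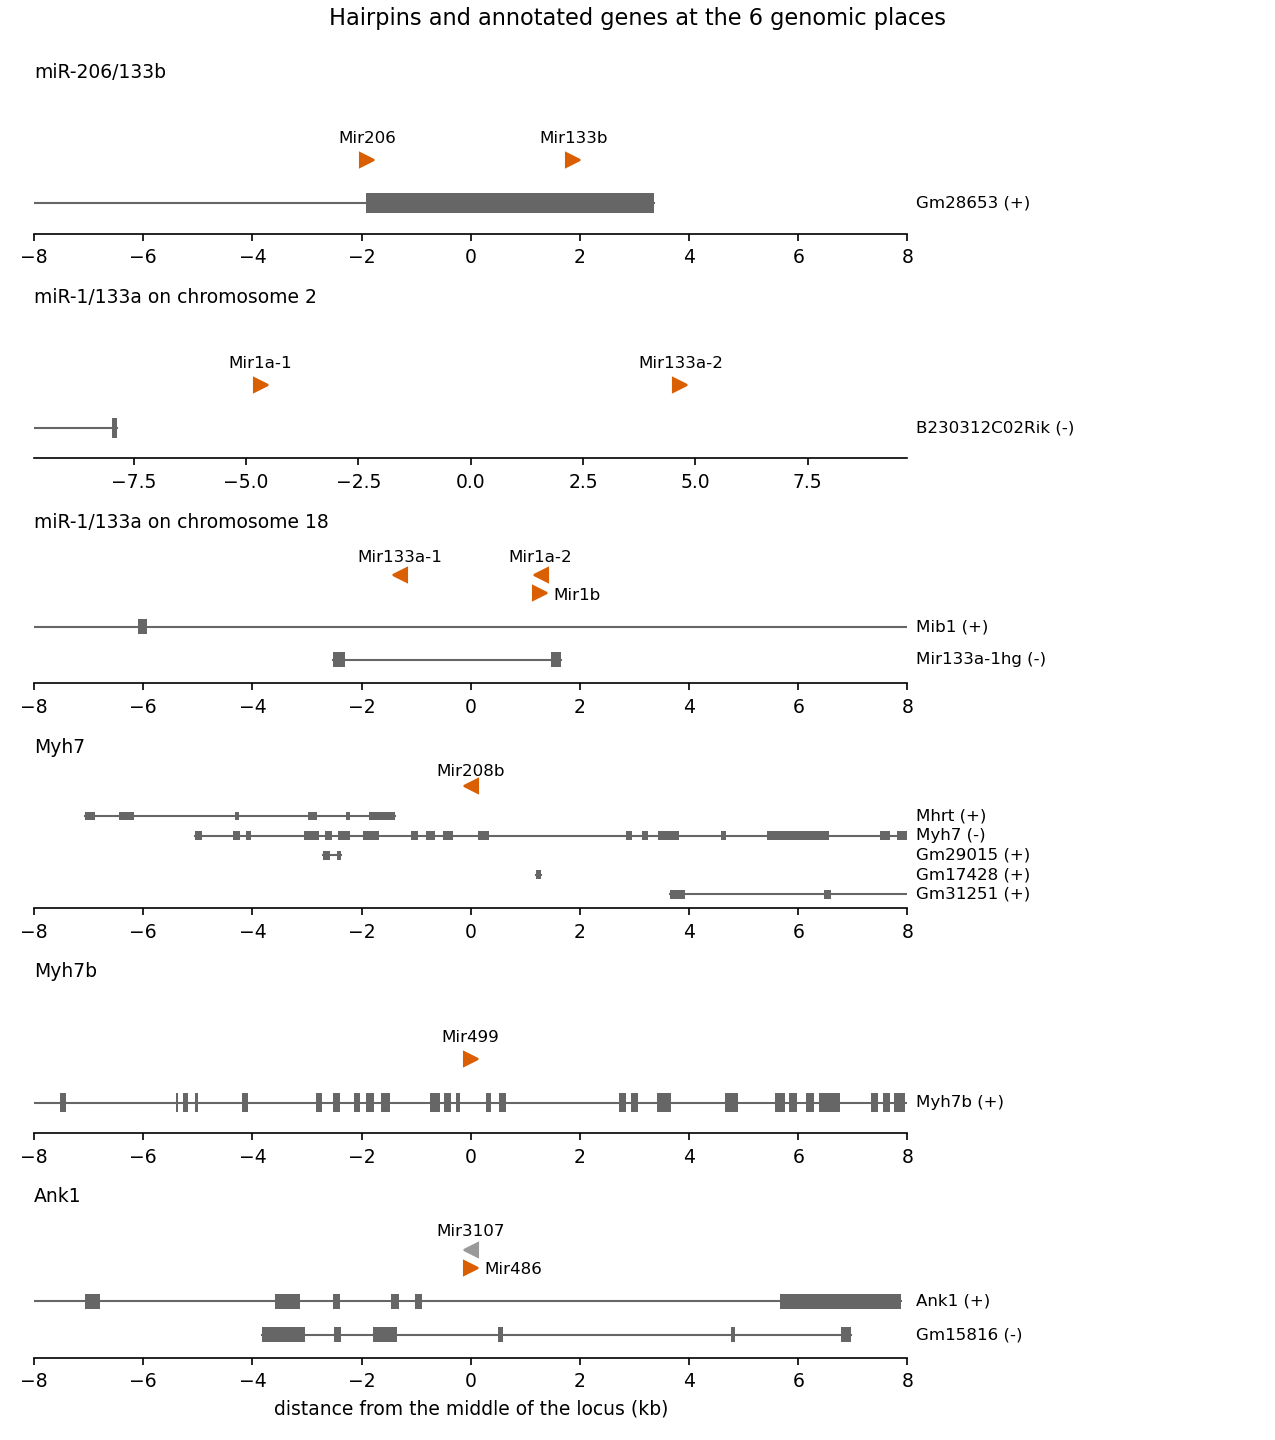
Hairpins (arrowheads pointing along their strand; orange, the muscle miRNA genes; grey, Mir3107) and other annotated genes (lines, with exons as boxes and the strand in brackets) at the 6 places, by distance from the middle of each locus in kb. Mir206 and Mir133b share a lincRNA, Mir1b faces Mir1a-2, and Mir486 faces Mir3107.

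How far a count can be trusted differed between members, since reads that fitted several places were tallied in a row of their own. This row held 5599235 reads (22.8% of all reads) in replicate 2 and 18382947 reads (33.4%) in replicate 1, against 15025315 and 27661907 reads on the strand of a miRNA gene. The genes behind these reads were not analysed here. miR-206-3p and miR-499-5p shared at most 12 and 11 bases in a row with any other miRNA gene, and miR-208b-3p at most 12. Among annotated hairpins their reads therefore had a single place, and matches elsewhere in the genome were not analysed. The first 21 of the 22 bases of miR-133b-3p, in contrast, were also present in Mir133a-1 and Mir133a-2, so only its last base sets it apart. The other arm, miR-133b-5p, shared at most 11 bases in a row with any other miRNA gene. Counts are per hairpin, so which arm gave the Mir133b reads cannot be told from them.

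The duplicated genes could be placed only in part. Mir1a-1 and Mir1a-2 shared a stretch of 28 bases and Mir133a-1 and Mir133a-2 one of 31 bases, each longer than a mature miRNA. Mir486 and Mir3107 shared 22 bases when each was read along its own strand, so a read of that stretch fitted both strands of 1 place. Levels of Mir133b, Mir486 and the miR-1 and miR-133a genes are therefore uncertain and may be understated. A count of 0 on Mir1a-1, Mir1a-2, Mir133a-1 or Mir133a-2 sets no limit on a mature miRNA from these shared stretches. The 5′ arm of Mir1a-1, miR-1a-1-5p, shared at most 14 bases in a row with another hairpin and so had a single place among them.

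**Figure D2:**
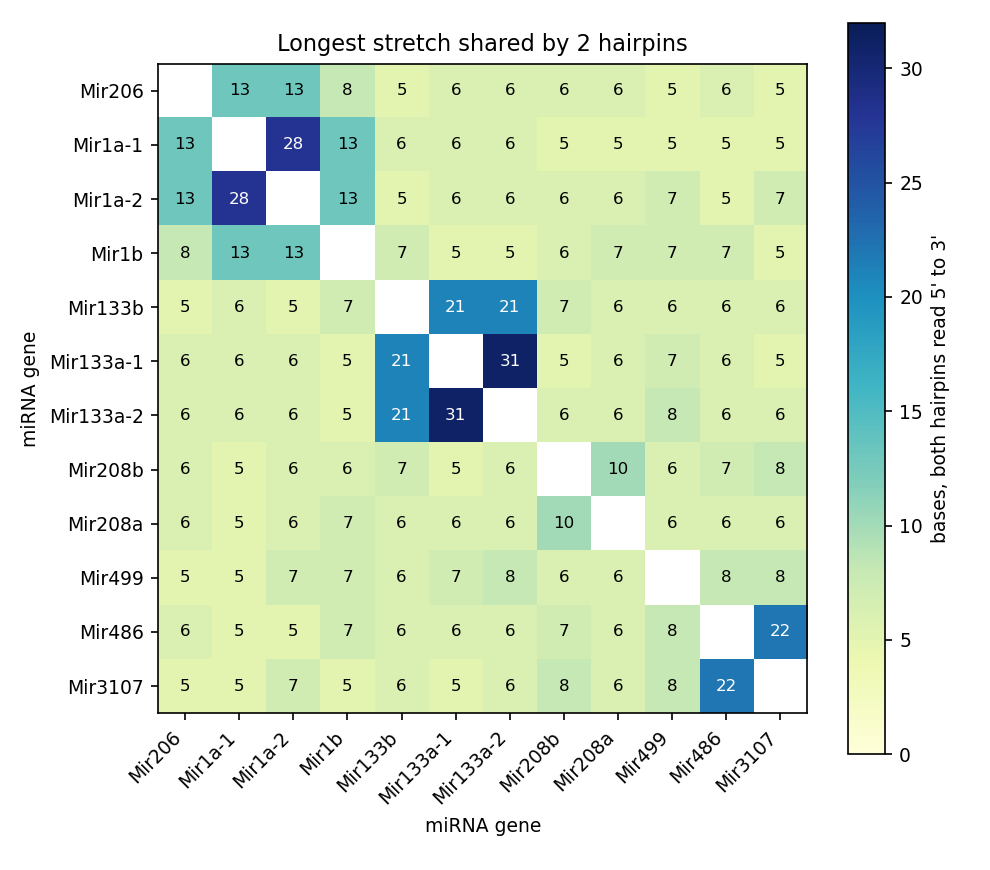
Length in bases of the longest stretch shared by each pair of hairpins, both read 5′ to 3′, for the 10 muscle miRNA genes, Mir208a and Mir3107. The pair Mir133a-1 and Mir133a-2 shared 31 bases, Mir1a-1 and Mir1a-2 shared 28, Mir486 and Mir3107 shared 22, and Mir133b shared 21 with each Mir133a gene, while Mir206 shared at most 13 with any hairpin shown.

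Levels are given as reads on the strand of the gene per 1000000 such reads on all miRNA genes (CPM). They are counts per hairpin, not per length. Divided by hairpin length, the members kept the same order. Mir21a took 53.5% of these reads in replicate 2 and 23.1% in replicate 1, which lowers the CPM of every other gene in replicate 2. Detection meant at least 1 CPM in each library. By this rule 4 of the 10 members were detected, Mir206, Mir133b, Mir1b and Mir486, beside 14.5% of all 2202 annotated genes (320 genes).

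Mir206 was by far the highest of the 10. It had 15451 reads or 1028 CPM in replicate 2 and 70786 reads or 2559 CPM in replicate 1, a mean of 1794 ± 1082 CPM (SD, n = 2). It made up 97.6% of the reads on the 10 members in replicate 2 and 96.3% in replicate 1. Among all 2202 genes it ranked 62nd in replicate 2 and 53rd in replicate 1. No read was counted on the strand opposite to Mir206 in either library. The 10 genes together took 0.105% of the counted reads in replicate 2 and 0.266% in replicate 1, so the muscle miRNAs with a single place were a small share of the repertoire.

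The genes closest to Mir206 in level were not other muscle miRNAs. By distance of log2 CPM in the 2 libraries, the nearest were Mir196a-2, Mir652 and Mir484, at distances of 0.113, 0.16 and 0.191. Mir196a-2 of the Hox clusters stood at 1099 CPM in replicate 2 and at 2667 CPM in replicate 1. Mir652 had 966 and 2337 CPM, and Mir484 1157 and 2721 CPM in the same order. By mean level Mir324 and Mir196a-2 stood just above Mir206, at 1884 ± 860 and 1883 ± 1109 CPM, and Mir652 and Mir615 just below, at 1651 ± 969 and 1609 ± 613 CPM (SD, n = 2 for each). The ranges of these neighbours overlapped with that of Mir206. With 2 libraries such a likeness is mostly one of level.

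Mir133b, the neighbour of Mir206, ranked next. It had 306 reads or 20.4 CPM in replicate 2 and 2433 reads or 88.0 CPM in replicate 1, a mean of 54.2 ± 47.8 CPM (SD, n = 2). Its rank among all genes was 174th in replicate 2 and 142nd in replicate 1. Nearest in level were Mir153 at 22.8 CPM in replicate 2 and 83.3 CPM in replicate 1, Mir193b at 26.4 and 73.5 CPM and Mir7689 at 25.4 and 59.3 CPM, at distances of 0.183, 0.456 and 0.654.

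The imbalance within this locus was large in both libraries and was not the same in both. Mir206 had 50.5 times as many reads as Mir133b in replicate 2 (exact 95% interval 45.1 to 56.7) and 29.1 times as many in replicate 1 (27.9 to 30.3). The ratio was 1.74 times higher in replicate 2 (95% interval 1.54 to 1.96), which exceeded counting noise (p = 8.27e-22, two-sided Fisher's exact test on the reads of the 2 libraries). A ratio within a library does not depend on how the libraries are scaled. The share of multi-mapping reads, 22.8% in replicate 2 and 33.4% in replicate 1, also differed. Its part in this ratio was not tested, nor was that of the 21 bases that miR-133b-3p shares with the Mir133a genes.

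At the locus of Mir1a-2 and Mir133a-1 on chromosome 18, reads were counted almost only on Mir1b. Mir1b had 43 reads or 2.86 CPM in replicate 2 and 123 reads or 4.45 CPM in replicate 1, a mean of 3.65 ± 1.12 CPM (SD, n = 2). Mir1a-2, on the other strand of the same bases, had 0 reads in replicate 2 and 3 reads or 0.108 CPM in replicate 1. Outside the stretch that Mir1a-2 shares with Mir1a-1, the 0 allows up to 0.2 CPM. Within that stretch the 0 sets no limit. Over both libraries 166 of the 169 reads counted on Mir1b or Mir1a-2, or 98.2% (exact 95% interval 94.9 to 99.6), lay on the Mir1b strand. Reads of the 28 bases that both strands of this place share with Mir1a-1 may not be among them. The 98.2% is therefore not the strand balance of the locus. Mir133a-1 had no read on its strand in either library and 2 reads on the opposite strand in replicate 1.

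The copy of this locus on chromosome 2 was empty in these counts. Mir1a-1 and Mir133a-2 had 0 reads in both libraries and on both strands. Of the 10 members, 3 had no gene-strand read in either library, as did 1398 of the 2202 annotated genes. For the arm miR-1a-1-5p, the count of 0 allows up to 0.2 CPM in replicate 2 and 0.108 CPM in replicate 1. Since each of these 3 members shares 28 or 31 bases with its copy, the zeros do not show that the mature miRNAs of those stretches were absent from the cells.

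The intronic members were at or near the detection threshold. Mir486 had 17 reads or 1.13 CPM in replicate 2 and 109 reads or 3.94 CPM in replicate 1, a mean of 2.54 ± 1.99 CPM (SD, n = 2). Its strand partner Mir3107 had 4 reads in replicate 2 and 15 in replicate 1. Reads of the 22 bases that both genes share may not be among these counts. Of the reads counted on either gene, Mir486 held 81.0% in replicate 2 (exact 95% interval 58.1 to 94.6) and 87.9% in replicate 1 (80.8 to 93.1). The erythroid markers Mir451a and Mir144 had lower values, at 0.666 and 0.2 CPM in replicate 2 and 0.832 and 0.362 CPM in replicate 1. In replicate 2 Mir451a had 10 reads against 17 for Mir486, so their order there rests on few reads. All erythroid marker genes on the list, 2 of 2, thus stayed under 1 CPM in both libraries.

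Both myosin genes gave a few reads on the miRNA strand. Mir208b in Myh7 had 9 reads or 0.599 CPM in replicate 2 (exact Poisson 95% interval 0.274 to 1.14) and 30 reads or 1.08 CPM in replicate 1 (0.732 to 1.55). Mir499 in Myh7b had 6 reads or 0.399 CPM in replicate 2 (0.147 to 0.869) and 21 reads or 0.759 CPM in replicate 1 (0.47 to 1.16). Their intervals overlapped in each library, so the depth did not separate them. The cardiac Mir208a, which lies 26557 bases from Mir208b, had no read in either library, which allows up to 0.2 CPM in replicate 2 and 0.108 CPM in replicate 1.

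The order Mir206, Mir133b, Mir1b, Mir486, Mir208b and Mir499 was the same in both libraries. Mir206 and Mir133b each lay far outside the counting interval of the next. Mir1b and Mir486 overlapped over the 2 libraries and in replicate 1, where their intervals were 3.70 to 5.30 and 3.24 to 4.75 CPM. In replicate 2 their intervals were apart, at 2.071 to 3.855 and 0.659 to 1.81 CPM. Mir208b, at 0.732 to 1.55 CPM, was apart from Mir486 in replicate 1. In replicate 2 its interval, 0.274 to 1.14 CPM, overlapped that of Mir486.

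**Figure D3:**
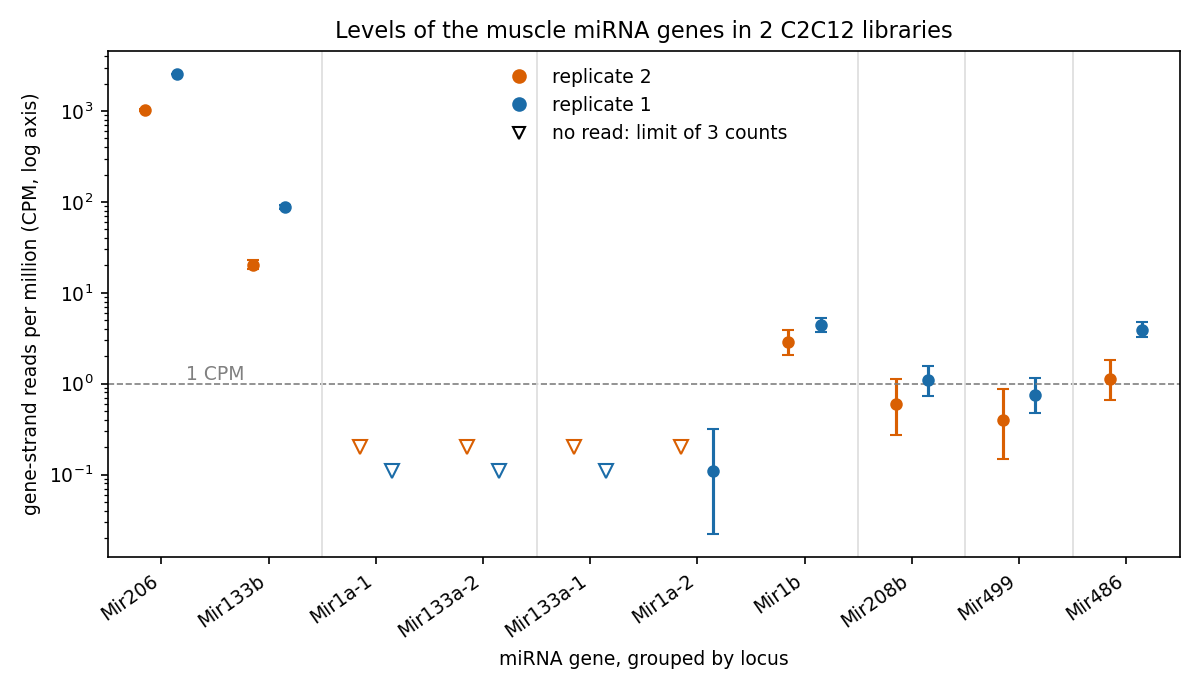
Gene-strand CPM of each muscle miRNA gene on a log axis in replicate 2 (orange) and replicate 1 (blue), with exact Poisson 95% intervals as bars. Open triangles mark the limit of 3 counts where no read was counted, which does not cover reads of shared stretches. Mir206 sits at 1028 and 2559 CPM, Mir133b at 20.4 and 88.0 CPM, and every other member below Mir133b in both libraries.

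Markers of other cell types put the low members in scale. The hepatocyte gene Mir122, at 1.27 CPM in replicate 2 and 3.90 CPM in replicate 1, was about level with Mir486. The epithelial list had 2 of 5 genes detected, with sums of 8.45 CPM in replicate 2 and 12.4 CPM in replicate 1, each above Mir1b. Of the other blood genes 2 of 3 were detected, with sums of 125 CPM in replicate 2 and 219 CPM in replicate 1, nearly all from Mir142, and the endothelial Mir126a stood at 134 CPM in replicate 2 and at 213 CPM in replicate 1. Both Mir142 and Mir126a lay above Mir133b. The 6 neural genes had sums of 0 CPM in replicate 2 and 0.0723 CPM in replicate 1, with 5 of them without a read. Of the members, then, Mir206 alone stood above every gene on these lists of other cell types. The lists are short and were chosen with earlier results known. Genes of other cell types outside them were not compared here. The part of such signal in the counts of the low members was not tested.

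Most of the other miRNAs on the myogenesis list were more abundant than Mir133b, and close to an equal number lay above and below Mir206. Of these 25 genes 23 were detected, with a median of 466 CPM in replicate 2 and 793 CPM in replicate 1. No median of the 10 members is set beside it, since several of them share their mature sequence with a copy. Of the 25, 12 had a higher mean than Mir206 and 19 a higher mean than Mir133b. Mir322, which takes part in the exit of myoblasts from the cell cycle, stood at 4933 CPM in replicate 2 and at 9199 CPM in replicate 1. Mir489, known from quiescent satellite cells, had no read in either library. Several of these genes, such as Mir24-2 and Mir29b-1, are themselves duplicated, and their counts carry the same doubt.

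**Figure D4:**
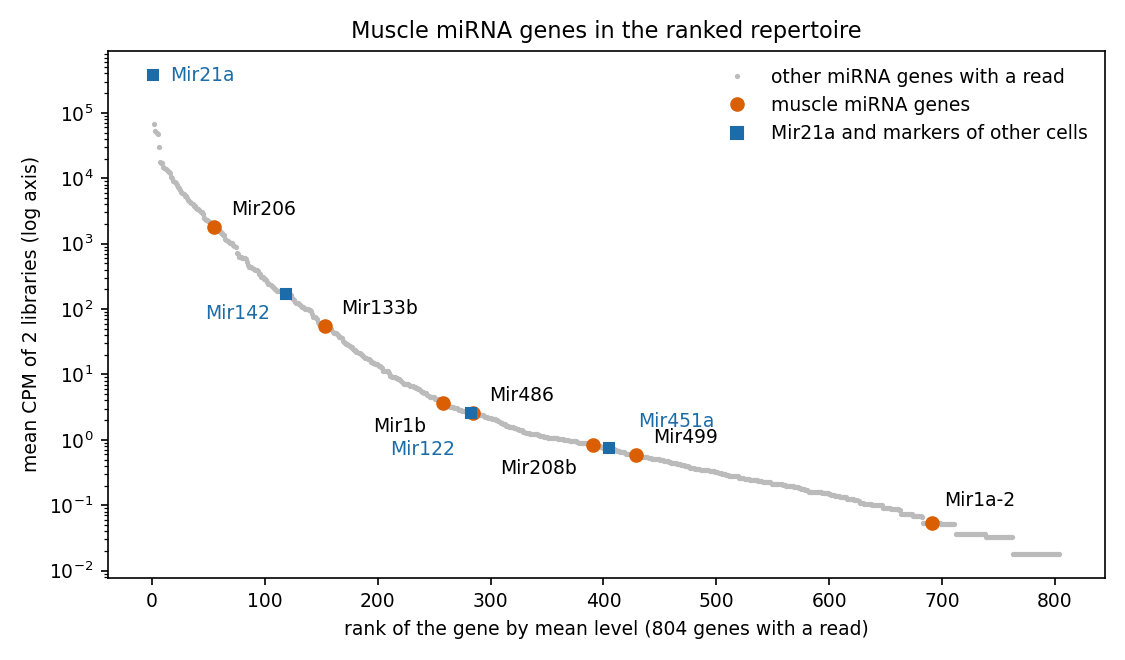
Mean CPM of 2 libraries on a log axis against rank for the 804 genes with a read (grey), with the muscle miRNA genes in orange and Mir21a, Mir142, Mir122 and Mir451a in blue. Mir206 lies at rank 55 and Mir133b at rank 153, with Mir142 between them, while Mir1b and Mir486 lie beside Mir122 and Mir208b and Mir499 beside Mir451a.

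The only comparison between libraries is that of replicate 2 with replicate 1, which asks how far each member varied within the group. After trimmed-mean (TMM) scaling, 3 of the 6 members with at least 10 reads differed by more than counting noise, all 3 lower in replicate 2. Over all 556 genes tested 41.5% were called and 16.9% were called lower in replicate 2. The test, an exact binomial test per gene with Benjamini-Hochberg adjustment over the 556 genes, compares these libraries and not conditions. The median log2 ratio was -0.18 over the 6 members and 0.09 over the 556 genes.

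Mir206 was 1.34-fold lower in replicate 2 (log2 ratio -0.42, counting SE 0.01, adjusted p = 2.3e-246, exact binomial test). Mir133b was 2.31-fold lower (log2 ratio -1.21, counting SE 0.09, adjusted p = 1.03e-52, exact binomial test), and Mir486 was 1.82-fold lower (log2 ratio -0.87, counting SE 0.37, adjusted p = 0.0345, exact binomial test). These p-values reflect depth. Over the 556 genes the 2 replicates had a common coefficient of variation of 34.3%, which implies an SD of 0.68 for a log2 ratio of 2 libraries, so with TMM Mir206 lay within this spread, and Mir486 and Mir133b beyond 1 SD. By library totals the implied SD was 0.95 and Mir206 had a log2 ratio of -1.31. Totals lower every ratio by 0.90, so this distance from 0 includes a shift common to all genes. It does not set Mir206 apart from them. Among the 210 genes that averaged 10 CPM or more, 26 had a log2 ratio as low as that of Mir206 and 4 one as low as that of Mir133b, counting the member itself.

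The members with few reads were not resolved. Mir1b had a log2 ratio of 0.27 (adjusted p = 0.494), Mir208b one of 0.10 (adjusted p = 1) and Mir499 one of 0.05 (adjusted p = 1, exact binomial tests). The 95% counting interval of the Mir208b ratio ran from -0.96 to 1.15 and that of Mir499 from -1.21 to 1.32. Both intervals held differences of either sign, so neither direction was excluded at this depth.

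The scaling sets the size of these differences and, for the low members, their sign. By library totals the log2 ratio of Mir133b was -2.11, since totals lower every ratio by 0.90, and 4 of the 6 members were called lower. Over all genes TMM gave 137 calls higher and 94 lower in replicate 2, totals without Mir21a 94 and 138, and library totals 26 and 304. Mir206, Mir133b and Mir486 were lower in replicate 2 under each scaling tried.

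**Figure D5:**
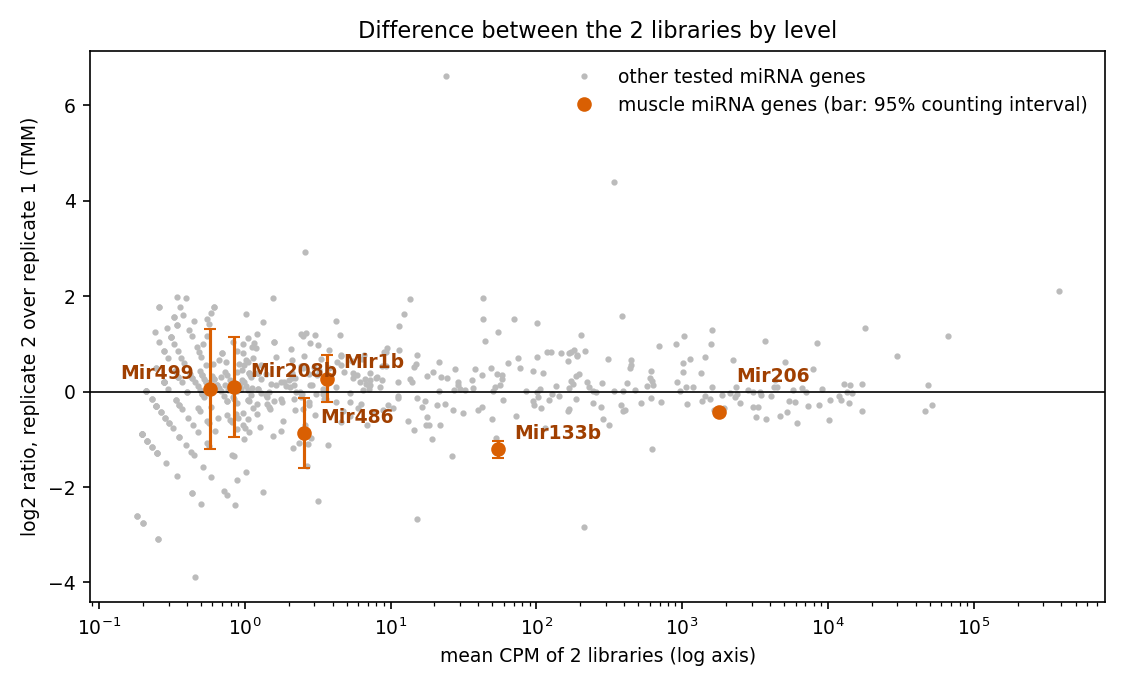
TMM-scaled log2 ratio of replicate 2 over replicate 1 against mean CPM (log axis) for the 556 tested genes (grey) and the 6 tested muscle miRNA genes (orange, with 95% counting intervals). Mir206 lies at -0.42 and Mir133b at -1.21 with narrow bars, whereas the bars of Mir1b, Mir208b and Mir499 span 0.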

How the data were processed

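Each deposited table holds whole-number read counts for 2202 miRNA genes, as made by the authors, in columns for either strand, the gene's strand and the opposite strand. Reads were adapter-trimmed per the labels, and used the mm10 build with GENCODE M21 per the readme text the authors deposited. Which aligner and counter made the counts is not given in the sources used here. That gene counts leave out multi-mapping reads was inferred only from the separate row of such reads. Rows that name no gene (unmapped, multi-mapping, no feature, ambiguous) held 38.8% of reads in replicate 2 and 49.7% in replicate 1 and stayed out of totals and tests. In the either-strand column, reads at overlapping genes on opposite strands fall into the ambiguous row.

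All identifiers matched GENCODE M21, from which symbols, positions, hosts and hairpin sequences were taken. CPM used the gene-strand total, so 1 read was worth 0.0666 CPM in replicate 2 and 0.0362 in replicate 1. A count of 0 allows up to 3 counts. Exact intervals and such limits cover counting error only, because PCR copies of a molecule were not told apart. TMM factors and the common coefficient of variation came from edgeR 4.0.16 under R 4.3.3, and tests and intervals from SciPy 1.17.1. Genes with at least 10 reads over both libraries were tested, with a prior count of 0.5 in log2 ratios and a threshold of 0.05; Mir1a-1, Mir1a-2, Mir133a-1 and Mir133a-2 did not reach it. The test was tried on simulated Poisson counts, which hold counting noise only and no spread between replicates. That trial does not cover the spread of these libraries. Shared stretches were exact matches between GENCODE hairpins, with 20 bases or more taken as a near-identical copy. Host genes were genes of other types spanning the hairpin.

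Named beside the 10 members were the genes next to Mir206 by mean CPM, the 3 nearest in log2 CPM to Mir206 and to Mir133b, strand partners and genes of marker and myogenesis lists. Members and lists were chosen with earlier results of these data known. The settings also tried were library totals, DESeq2 1.42.0 size factors, totals without Mir21a, either-strand counts, other minimums and leaving out each replicate.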

Additional observations from a re-analysis of the deposited data

Results flagged for a closer look

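Reads outside the gene-strand counts of a member exceeded, in 3 cases, the limit of 3 that a count of 0 allows. Multi-mapping reads, which were taken to be absent from the gene counts, numbered 5599235 in replicate 2 and 18382947 in replicate 1. On the strand opposite to Mir1a-2, which is the strand of Mir1b, there were 43 reads in replicate 2 and 123 in replicate 1, which are the gene-strand counts of Mir1b. On the strand opposite to Mir486, which is the strand of Mir3107, there were 4 reads in replicate 2 and 15 in replicate 1, which are the gene-strand counts of Mir3107 and part of the library totals. The series has no control group to set these values against.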

How the results depend on the processing

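The number of detected members was 2 in place of 4 with a CPM minimum of 10, and also 2 with either-strand counts, where Mir1b and Mir486 have 0 reads because reads at genes on opposite strands are tallied as ambiguous. With totals without Mir21a it was 5, and the mean CPM of Mir1b was 5.97 in place of 3.65, that of Mir208b 1.35 in place of 0.842 and that of Mir499 0.923 in place of 0.579. Leaving out 1 replicate gave 4 to 5 detected members and a ratio of Mir206 to Mir133b of 29.1 to 50.5, around a mean of 39.8. The log2 ratio of Mir1b turned to -0.62 by library totals, where it passed the exact binomial test (adjusted p = 0.0212), against adjusted p = 0.494 with TMM. Those of Mir208b turned to -0.80 by library totals and -0.0753 by totals without Mir21a. Those of Mir499 turned to -0.84 by library totals, -0.12 by totals without Mir21a and -0.00962 by DESeq2 size factors. None of the Mir208b and Mir499 values passed the test under the alternatives run. The number of genes called stayed within 1.5 times the 231 reported under all 6 alternatives. No paired analysis was possible because the 2 libraries form a single group. The wide counting intervals of Mir1b, Mir208b and Mir499 limit their ratios. The zeros of Mir1a-1, Mir133a-1 and Mir133a-2, and that of Mir1a-2 in replicate 2, are also limited by their shared stretches.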

Other observations

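The imbalance of Mir206 and Mir133b was set beside that of other neighbouring hairpins, a description chosen after the values had been seen. In all, 67 pairs of consecutive miRNA genes lay on 1 strand within 10000 bases of each other and had at least 10 reads per gene in each library. Their members differed by a median of 4.76-fold in replicate 2 and 5.81-fold in replicate 1. Mir206 and Mir133b were 50.5-fold and 29.1-fold apart in the same order, and 12 of the 67 pairs, counting this one, were at least as far apart in both libraries. The log2 ratio within a pair shifted between the libraries by a median of 0.61, and by 0.80 for Mir206 and Mir133b, a shift that 21 of the 67 pairs reached, counting this one. Several of the wider pairs also hold a gene with a near-identical copy, such as Mir99a with Mirlet7c-1, at 95.4-fold in replicate 2 and 147-fold in replicate 1.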
